A study of Mus musculus with 23 samples.

Results

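The mitochondrial genome of the mouse carries 37 genes, and these were taken as all genes on chromosome MT in a count table of mouse liver, 37 of its 54838 genes. They are 13 protein-coding genes, 2 ribosomal RNA (rRNA) genes and 22 transfer RNA (tRNA) genes, and all 37 have the same GRCm38 coordinates and strand in GENCODE M21. The counts come from RNA sequencing of 23 liver libraries of C57BL/6J mice, an inbred laboratory strain, that were injected with vehicle or with 1 of 4 secreted proteins: EPDR1, of the ependymin family, the complement lectin FCN2, the activin binder FSTL3, or LBP, which binds bacterial lipopolysaccharide. Each protein was given at 1 µg per g of body weight in 3 injections with an interval of 1 day. EPDR1, FCN2 and FSTL3 (4 libraries each) belonged to batch 2 with 4 vehicle libraries, and LBP (3 libraries, numbered 2, 3 and 4) belonged to batch 1 with 4 vehicle libraries of its own. The labels used here give no age, and they do not say that the numbered samples are separate animals, so p-values measure only the spread between these samples, which may be technical.

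Mitochondria keep a small circular genome of their own, whose messenger RNAs (mRNAs) encode core subunits of the respiratory chain and of ATP synthase, the enzymes that make most of a hepatocyte's ATP. Both strands are copied by the mitochondrial RNA polymerase Polrmt into long precursors, and the tRNAs that lie between most of the other genes are cut out of them, which frees the mRNAs and rRNAs. Mitochondrial mRNAs of mammals carry short poly(A) tails (mt-Nd6 is known as an exception), the rRNAs carry only a few A residues at their ends, and the tRNAs end in CCA. In the annotation 28 genes lie on the plus strand and 9 on the minus strand, the latter being mt-Nd6 and 8 tRNAs. The table was counted without regard to strand under the counting program's defaults, so RNA of a gene and RNA copied from the opposite strand at the same place cannot be told apart.

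Of the 37 genes, 17 held enough counts to be tested and 20 did not. The tested genes were both rRNAs, 7 of the 13 protein-coding genes (mt-Nd1, mt-Nd2, mt-Co1, mt-Nd4, mt-Nd5, mt-Nd6 and mt-Cytb) and 8 of the 22 tRNAs (mt-Ta, mt-Tc, mt-Te, mt-Ti, mt-Tl1, mt-Tm, mt-Tp and mt-Tq). The 6 other protein-coding genes, mt-Co2, mt-Co3, mt-Atp6, mt-Atp8, mt-Nd3 and mt-Nd4l, together held 16 counts over all 23 libraries, although they encode subunits of cytochrome c oxidase, ATP synthase and complex I. In 5 of these 6, all but mt-Atp8, at least 97% of the 50-base windows (the read length) also occur in the transcript of another annotated gene, and reads that fit 2 places equally well are not counted under the program's defaults. For mt-Atp8, which lies between mt-Co2 and mt-Atp6, no such window was found among annotated transcripts. Pseudogene copies of these 2 neighbours, Gm28661 and Gm10925, lie at chr1:24614885-24615565 and chr1:24613974-24614651. The sequence between these copies was not searched, so whether it holds a copy of mt-Atp8 was not tested. The first 50 bases of mt-Co2 and mt-Nd3 are shown with those of their copies on the minus strand of chromosome 1, because reads from identical stretches fit 2 places. They are reference transcript sequences of GENCODE M21 (GRCm38), at chrMT:7013-7062 (plus) for mt-Co2, chr1:24615516-24615565 (minus) for the pseudogene Gm28661, chrMT:9459-9508 (plus) for mt-Nd3 and chr1:24613070-24613119 (minus) for the pseudogene Gm28438. The capital letters mark the base of mt-Nd3 that differs in Gm28438 (T3C, counted from the first base of mt-Nd3).
mt-Co2: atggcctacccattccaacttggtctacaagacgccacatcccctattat
Gm28661: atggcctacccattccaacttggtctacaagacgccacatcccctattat
mt-Nd3: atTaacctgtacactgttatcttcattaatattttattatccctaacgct
Gm28438: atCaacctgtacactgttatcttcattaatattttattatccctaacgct

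Along their full aligned lengths, Gm28661 matched mt-Co2 at all 681 bases, Gm10925 matched mt-Atp6 at all 678, Gm28437 matched mt-Co3 at all 783, Gm10222 matched mt-Nd4l at all 294, and Gm28438 matched mt-Nd3 at all but 1 of 345. The same stretch of chromosome 1 also holds an identical copy of the first 876 bases of mt-Nd4 (Gm28439) and a copy of the last 492 bases of mt-Co1 (Gm29216, 6 differences), and chromosome 2 holds a copy of mt-Co1 with 37 differences (Gm13340). In all, 62.2% of the windows of mt-Nd4 and 51.1% of those of mt-Co1 occur elsewhere, against 8.19% for mt-Nd2, 7.61% for mt-Nd5, 1.04% for mt-Rnr2 and 0 for mt-Nd1, mt-Nd6, mt-Cytb and mt-Rnr1. The levels of mt-Co1 and mt-Nd4 per kb are therefore not on the footing of the others. Reads that lie on 2 genes are not counted by default either, and mt-Atp8 and mt-Atp6 share 43 bases, mt-Nd5 and mt-Nd6 14, and mt-Nd4l and mt-Nd4 7. Among the tRNAs, 14 were not tested: 7 held no count in any library and the other 7 held 466 counts in all. The most abundant of these was mt-Ts2 (tRNA for serine) with 151. Sequence outside annotated transcripts was not searched for copies of the tRNAs either. mt-Tf, the tRNA for phenylalanine, had 28 counts, of which 18 fell in the 4 FSTL3 libraries, 10 in LBP replicate 2 and none in the other 18 libraries.

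The libraries held 773499 to 21892416 gene counts (median 3712802), and all 4 of FSTL3 (9298871 to 10930800) were deeper than every library of another group except vehicle replicate 2 of batch 2. The 12 hepatocyte markers made up 10% to 12.8% of counts in 22 libraries and 6.62% in LBP replicate 2, with no marker at 0 in any group, while 8 muscle markers took at most 0.00189%. LBP replicate 2 also stood apart by CT010467.1, a gene annotated as ribosomal RNA, at 12.3% of its counts against at most 0.631% in the other 22. Results are therefore given with and without this library. The FSTL3 libraries held CT010467.1 at 0.0108% to 0.0253% of counts, against at least 0.183% in each other group. They also stood apart by 7 structural RNAs made without a poly(A) tail, such as Rn7sk, at 0.575% to 0.667% of counts. These structural RNAs took 0.000217% to 0.000829% in the other groups and 0.00164% in LBP replicate 2. Long noncoding RNAs took 1.96% to 2.52% in FSTL3, against 0.461% to 1.09% in the other groups and 1.55% in LBP replicate 2. Levels below are CPM, counts per 1000000 counts of a library size scaled by the TMM method, or CPM per kb where genes are compared, and folds are edgeR log2 fold changes ± SE with p-values adjusted over 11969 genes, called below 0.05.

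Per kb of gene, mt-Cytb, the mitochondrial subunit of complex III, stood highest in 5 of the 6 groups among the 7 tested mRNAs and rRNAs other than mt-Co1 and mt-Nd4, when LBP replicate 2 is left out. mt-Co1 and mt-Nd4 are given no place, since 51.1% and 62.2% of their windows occur elsewhere. The means of mt-Cytb were 8379.8 CPM per kb in the vehicle of batch 1, 13260.4 in LBP, 21169 in the vehicle of batch 2, 26088 in EPDR1 and 28833 in FCN2. In the vehicle of batch 2 the order went on with mt-Nd2 (13773) and mt-Nd1 (13769), subunits of complex I, whose libraries overlap almost fully, then mt-Nd6 (8456) and mt-Rnr1 (6421). mt-Nd5 and mt-Rnr2 were the lowest, at 4139 and 4126, and their libraries overlap too. The FSTL3 libraries had another order: mt-Rnr2 stood highest at 32632 CPM per kb, followed by mt-Rnr1 at 8685, while mt-Nd1 (2169.6) and mt-Cytb (2155) overlapped and mt-Nd6 was the lowest at 372.

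**Figure D1:**
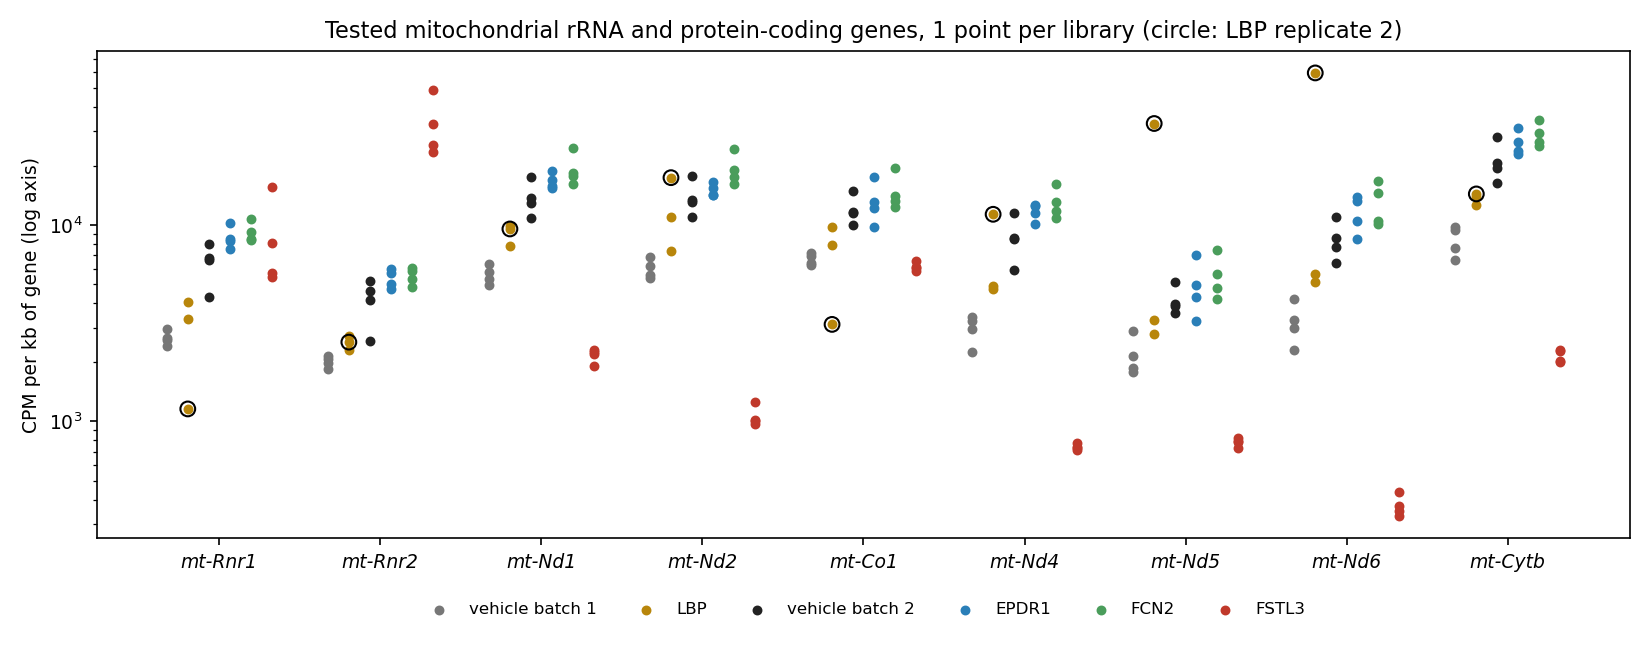
Each point is 1 library: level in CPM per kb of gene (log axis) of the 9 tested mitochondrial rRNA and protein-coding genes, coloured by group, with LBP replicate 2 circled. The 4 FSTL3 points lie above all others for mt-Rnr2 and below those of the vehicle of batch 2 for every protein-coding gene, and the circled library is the highest for mt-Nd5 and mt-Nd6.

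By class, the FSTL3 livers gave the lowest share of mitochondrial mRNA and the highest share of mitochondrial rRNA. The protein-coding genes took 2.06, 2.01, 2.13 and 1.97% of gene counts in the 4 FSTL3 libraries, 7.36, 8.95, 8.78 and 11.8% in the 4 vehicle libraries of batch 2, and 4.15, 4.32, 4.896 and 5.26% in the 4 of batch 1. They took 13.01, 9.58, 10.3 and 9.596% in the EPDR1 libraries, 10.4, 10.6, 11.04 and 13.9% in FCN2 and 9.34, 6.38 and 6.76% in LBP replicates 2, 3 and 4. No FSTL3 library reached the lowest vehicle library of either batch, and the vehicles of the batches did not overlap each other either. The 2 rRNAs took 5.38, 5.05, 6.796 and 10.1% in FSTL3 against 0.809, 1.39, 1.23 and 1.54% in the vehicle of batch 2 and 0.635, 0.692, 0.638 and 0.631% in the vehicle of batch 1. The rRNA shares of EPDR1 (1.37 to 1.82%) and FCN2 (1.44 to 1.69%) overlapped those of their vehicle, and those of LBP were 0.308, 0.778 and 0.822%. In FSTL3 the fall of the mRNAs and the higher rRNA level partly offset each other, so that all 37 genes together took 7.08 to 12.1% of counts against 8.17 to 13.4% in the vehicle of batch 2.

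**Figure D2:**
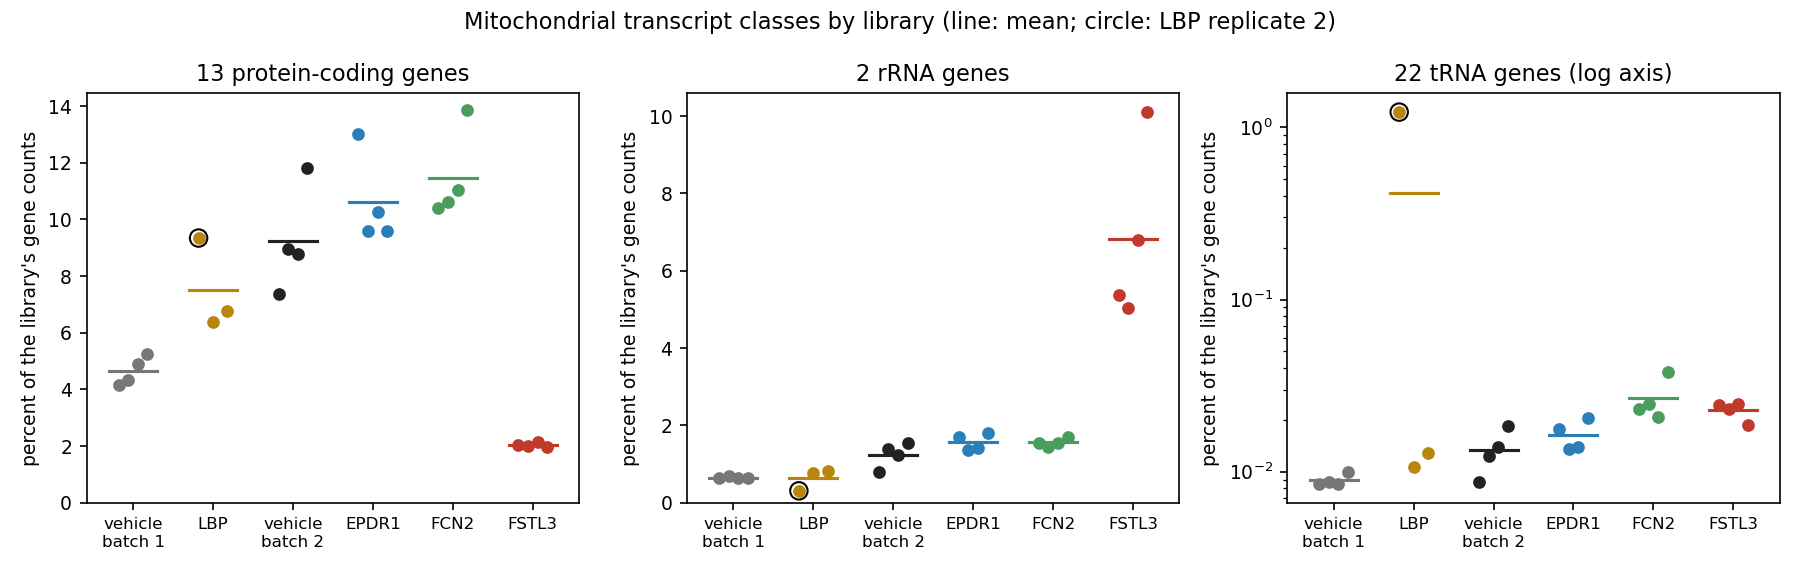
Each point is 1 library and each line a group mean: share of the library's gene counts (percent) on the 13 protein-coding, 2 rRNA and 22 tRNA genes of the mitochondrial genome, the last on a log axis. FSTL3 is lowest for the protein-coding genes (1.97 to 2.13%) and highest for the rRNAs (5.05 to 10.1%), and LBP replicate 2 (circled) has a tRNA share of 1.23%.

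The class shares were tested with 2-sided exact permutation tests over the libraries. The protein-coding share differed by -7.18 percentage points between FSTL3 and its vehicle, by 2.84 between LBP and its vehicle and by 4.57 between the vehicles of batch 2 and batch 1, each with exact permutation p = 0.0286, the smallest that these group sizes allow, and 0.0635 after adjustment over 20 class tests. The rRNA share differed by 5.59 points for FSTL3 and 0.592 for the vehicles, with the same exact p and adjusted value. The log2 ratio of rRNA to protein-coding counts was 1.39, 1.33, 1.67 and 2.36 in FSTL3 and -3.19, -2.69, -2.83 and -2.94 in the vehicle of batch 2, a difference of 4.599 (exact permutation p = 0.0286, adjusted 0.0635). The tRNA share was 0.02303, 0.0247, 0.0208 and 0.0379% in FCN2, 0.0244, 0.0232, 0.0246 and 0.0188% in FSTL3 and 0.00872, 0.0124, 0.0138 and 0.0184% in their vehicle. It was higher in both without overlap, by 0.0133 points in FCN2 and 0.00941 in FSTL3, each with exact permutation p = 0.0286 and adjusted 0.0635. In LBP replicates 2, 3 and 4 it was 1.23, 0.0106 and 0.0128% against 0.00846 to 0.00997% in the vehicle of batch 1, a mean difference of 0.408 points with the same p values, which rests in size on replicate 2. The EPDR1 and vehicle comparisons overlapped (exact permutation p = 0.257 and 0.0571). Of the tRNA counts, mt-Tc made up 74.2 to 84.8% in FSTL3, against 21.3 to 32.7% in its vehicle. Across the 8 tested tRNAs the FSTL3 median log2 fold change was -1.17, with 0 called higher and 2 lower by edgeR. Leaving out LBP replicate 2 gave a median of -1.18, with 1 higher and 5 lower. Most single tRNAs therefore did not share the direction of the FSTL3 class share. None of the 20 adjusted values was under 0.05, which would have needed most of the 20 tests to reach the smallest p together. The protein-coding share of EPDR1 (1.39 points, exact permutation p = 0.314) and of FCN2 (2.26 points, exact permutation p = 0.114) overlapped their vehicle.

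In FSTL3 against the vehicle of batch 2, 10 of the 17 tested genes were called, 1 higher and 9 lower, where 39.2% of all tested genes were called (23.2% higher and 16% lower). All 7 tested protein-coding genes fell, and so did the tRNAs mt-Te (glutamate) and mt-Tp (proline), while mt-Rnr2 rose. Of these 10 genes, limma-voom called all and DESeq2 all but mt-Nd5. The median log2 fold change of the 7 protein-coding genes was -3.30 against 0.06 over all tested genes. Without LBP replicate 2, whose spread enters the shared fit, 14 of the 17 were called, 2 higher (mt-Rnr2 and mt-Tc) and 12 lower, where 56.8% of all genes were (31.3% higher and 25.4% lower).

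The protein-coding gene with the largest fall was mt-Nd6, the complex I subunit on the minus strand (chrMT:13552-14070), at 182, 171, 192 and 228 CPM in the 4 FSTL3 libraries and 3339, 4028, 4482 and 5706 in the 4 vehicle libraries of batch 2. Its log2 fold change was -4.51 ± 0.57, adjusted p = 2.19e-06. mt-Cytb (chrMT:14145-15288, plus) read 2325, 2304, 2601 and 2630.2 CPM against 18769, 22261, 23626 and 32215. Every FSTL3 library lay below every vehicle library for both genes, and the log2 fold change of mt-Cytb was -3.296 ± 0.24, adjusted p = 1.35e-09.

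The other complex I subunits also fell. mt-Nd2 (chrMT:3914-4951) read 1055, 1013, 1048 and 1311 CPM in FSTL3 and 11335, 13912, 13613 and 18324 in the vehicle. mt-Nd1 (chrMT:2751-3707) read 2153, 1826, 2104 and 2222 and 10403, 12345, 13116 and 16844. In neither gene did the groups come near each other, the lowest vehicle library being several times the highest FSTL3 library. Their log2 fold changes were -3.69 ± 0.27 and -2.67 ± 0.22, beside -3.54 ± 0.30 for mt-Nd4 and -2.399 ± 0.52 for mt-Nd5, with edgeR adjusted p of 0.000896 or less for all 4. mt-Co1, the catalytic subunit of cytochrome c oxidase, had the smallest change of the 7, with 9405, 9301, 10164 and 8979 CPM against 15461, 17795, 17952 and 23111. The groups did not overlap, and the log2 fold change was -0.97 ± 0.28, adjusted p = 0.00832.

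With the other mRNAs falling more, mt-Co1 took 53.6, 54.9, 54.7 and 50.02% of the mitochondrial protein-coding counts in the FSTL3 libraries, against 15.2 to 27.2% in the other groups without LBP replicate 2. mt-Cytb took 13.2 to 14.7% in FSTL3 against 24.97 to 26.5% in the vehicle of batch 2, and mt-Nd6 took 1.01 to 1.27% against 4.51 to 4.88%. The share of mt-Nd5 was alike in both, at 7.78 to 8.401% and 7.74 to 8.79%. These shares are descriptions, and no test was made of them. Since 51.1% of the windows of mt-Co1 occur elsewhere, reads from part of this gene may go uncounted. Whether that bears alike on its fold change and share in all groups was not tested.

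The rRNAs of the large and the small subunit of the mitochondrial ribosome are neighbours on the plus strand, mt-Rnr1 (small subunit) at chrMT:70-1024 and mt-Rnr2 (large subunit) at chrMT:1094-2675, with the valine tRNA between them. In FSTL3 the large-subunit rRNA rose and the small-subunit rRNA did not pass the test. mt-Rnr2 read 40506, 37382, 51429 and 77181 CPM in FSTL3 and 4043, 7314, 6558 and 8194 in the vehicle of batch 2, a log2 fold change of 2.98 ± 0.26, adjusted p = 2.28e-08. mt-Rnr1 read 5448, 5173, 7731 and 14824 CPM and 4089.7, 6485, 6342 and 7612, and its groups overlap. Its log2 fold change was 0.44 ± 0.34, adjusted p = 0.323, with a value of 0.00 without FSTL3 replicate 4, the highest library of this group. The ratio of mt-Rnr2 to mt-Rnr1 counts was 7.44, 7.23, 6.65 and 5.21 in the 4 FSTL3 libraries, against 0.925 to 1.47 in 18 libraries of the other groups and 3.62 in LBP replicate 2. A ratio within a library is the same under any scaling of library size, and it was not tested between groups.

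**Figure D3:**
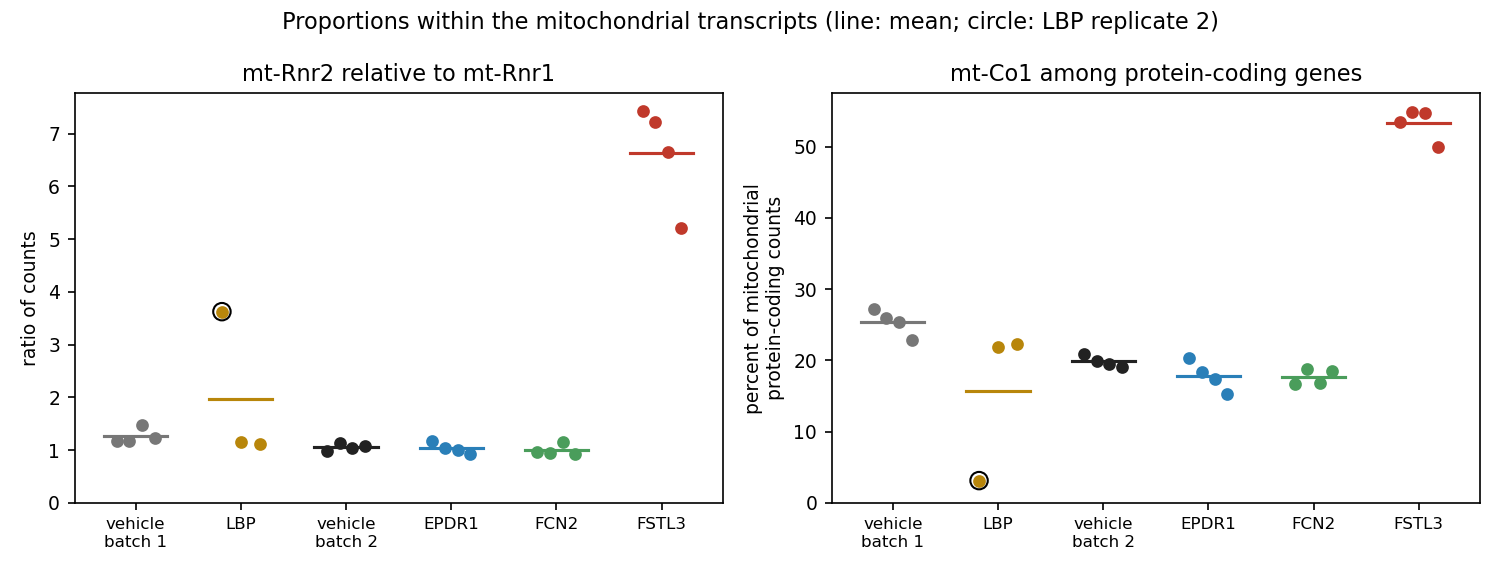
Each point is 1 library and each line a group mean: the ratio of mt-Rnr2 to mt-Rnr1 counts, and the share of mt-Co1 among mitochondrial protein-coding counts (percent). The FSTL3 libraries lie at ratios of 5.21 to 7.44 and mt-Co1 shares of 50.0 to 54.9%, apart from the other groups, and LBP replicate 2 (circled) has the lowest mt-Co1 share, 3.11%.

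Among the tRNAs, mt-Te and mt-Tp fell in FSTL3 and the cysteine tRNA mt-Tc went the other way without passing the test. mt-Te read 3.86, 5.56, 5.97 and 4.67 CPM against 25.4, 29.4, 54.8 and 69.1 (-3.13 ± 0.45, adjusted p = 9.55e-06), and mt-Tp read 2.48, 1.48, 3.25 and 4.17 against 6.47, 9.65, 9.96 and 11.8 (-1.72 ± 0.54, adjusted p = 0.0147). mt-Tc read 177, 155, 176 and 127 CPM in FSTL3 and 28.6, 39.5, 30.7 and 46.2 in the vehicle, so that every FSTL3 library lay above every vehicle library. Its log2 fold change was 2.13 ± 0.96, adjusted p = 0.08400 with all libraries and 2.12 ± 0.23, adjusted p = 6.16e-08 without LBP replicate 2, which has by far the highest mt-Tc level. mt-Tq, the glutamine tRNA, read 18.8, 26.2, 20.8 and 26.8 CPM against 14.4, 32.1, 37.4 and 44.4, with overlap (-0.46 ± 0.78, adjusted p = 0.675). Of the 17 tested genes, 12 had all FSTL3 libraries below and 2 had all above those of the vehicle, where 23.8% of all tested genes lay wholly below and 29.9% wholly above.

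CT010467.1, the structural RNAs and the long noncoding RNAs listed above differed in the same 4 FSTL3 libraries, and their part in these results was not tested. Markers of sinusoidal endothelial cells were higher in FSTL3 for 4 of 8 genes (0.0595% to 0.0713% of counts against 0.0184% to 0.0234%), Kupffer cell markers lower for 4 of 10 (0.0192% to 0.0219% against 0.0192% to 0.0487%) and hepatocyte markers lower for 3 of 12 (10.1% to 10.9% against 10.3% to 11.5%), where 23.2% of all genes were higher and 16% lower; their part was not tested. In the fit without LBP replicate 2 the counts were 5 of 8 higher, 7 of 10 lower and, for hepatocyte markers, 8 of 12 lower and 1 higher, where 31.3% of all genes were higher and 25.4% lower. In bulk liver RNA, fewer cells of a type and less RNA per cell cannot be told apart. Of a list of 9 genes chosen by symbol as nuclear copies, which holds the 7 copies on chromosome 1 named above but not those on chromosome 2, 5 were tested, all on chromosome 1, and all 5 fell in FSTL3 with a median log2 fold change of -6.05. The 9 held 3.09e-05% to 0.000137% of counts in FSTL3 against 0.00362% to 0.00607% in the vehicle. The 2 of this list with most counts were Gm28437 (copy of mt-Co3), with 1 count over the 4 FSTL3 libraries and 340 over the 4 vehicle libraries, and Gm29216 (copy of mt-Co1), with 5 and 281. The copies on chromosome 2 held more, Gm13340 with 63 and 924 and Gm13341 with 30 and 497. A read from an identical stretch of a copy and one from the mitochondrial gene cannot be told apart.

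Set against the vehicle of batch 1 in place of batch 2, FSTL3 still had lower mitochondrial mRNAs and higher rRNA, with smaller differences in the mRNAs and larger ones in the rRNAs. In that comparison 9 of 17 genes were called, 2 higher and 7 lower, where 31.9% of all genes were called, and 7 of the 9 were also called against batch 2. mt-Nd6 had a log2 fold change of -3.100 ± 0.54, mt-Nd2 of -2.49 ± 0.26, mt-Nd4 of -2.001 ± 0.28, mt-Cytb of -1.96 ± 0.22, mt-Nd5 of -1.47 ± 0.51 and mt-Nd1 of -1.36 ± 0.21. mt-Co1 did not pass the test there (-0.13 ± 0.28, edgeR adjusted p = 0.7600), and neither did mt-Te or mt-Tp. Both rRNAs were higher than in the vehicle of batch 1, mt-Rnr2 by 4.02 ± 0.28 and mt-Rnr1 by 1.71 ± 0.34. The 2 vehicles also differed in Dbp, an output gene of the circadian clock named after its values were seen, which read at least 60.1 CPM in the batch 1 vehicle and at most 11.1 in the batch 2 vehicle. It read 24.1 to 41.4 CPM in FSTL3, 2.27, 60.2 and 22.3 in LBP replicates 2, 3 and 4, and at most 2.59 in EPDR1 and FCN2. Its part in the result was not tested.

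**Figure D4:**
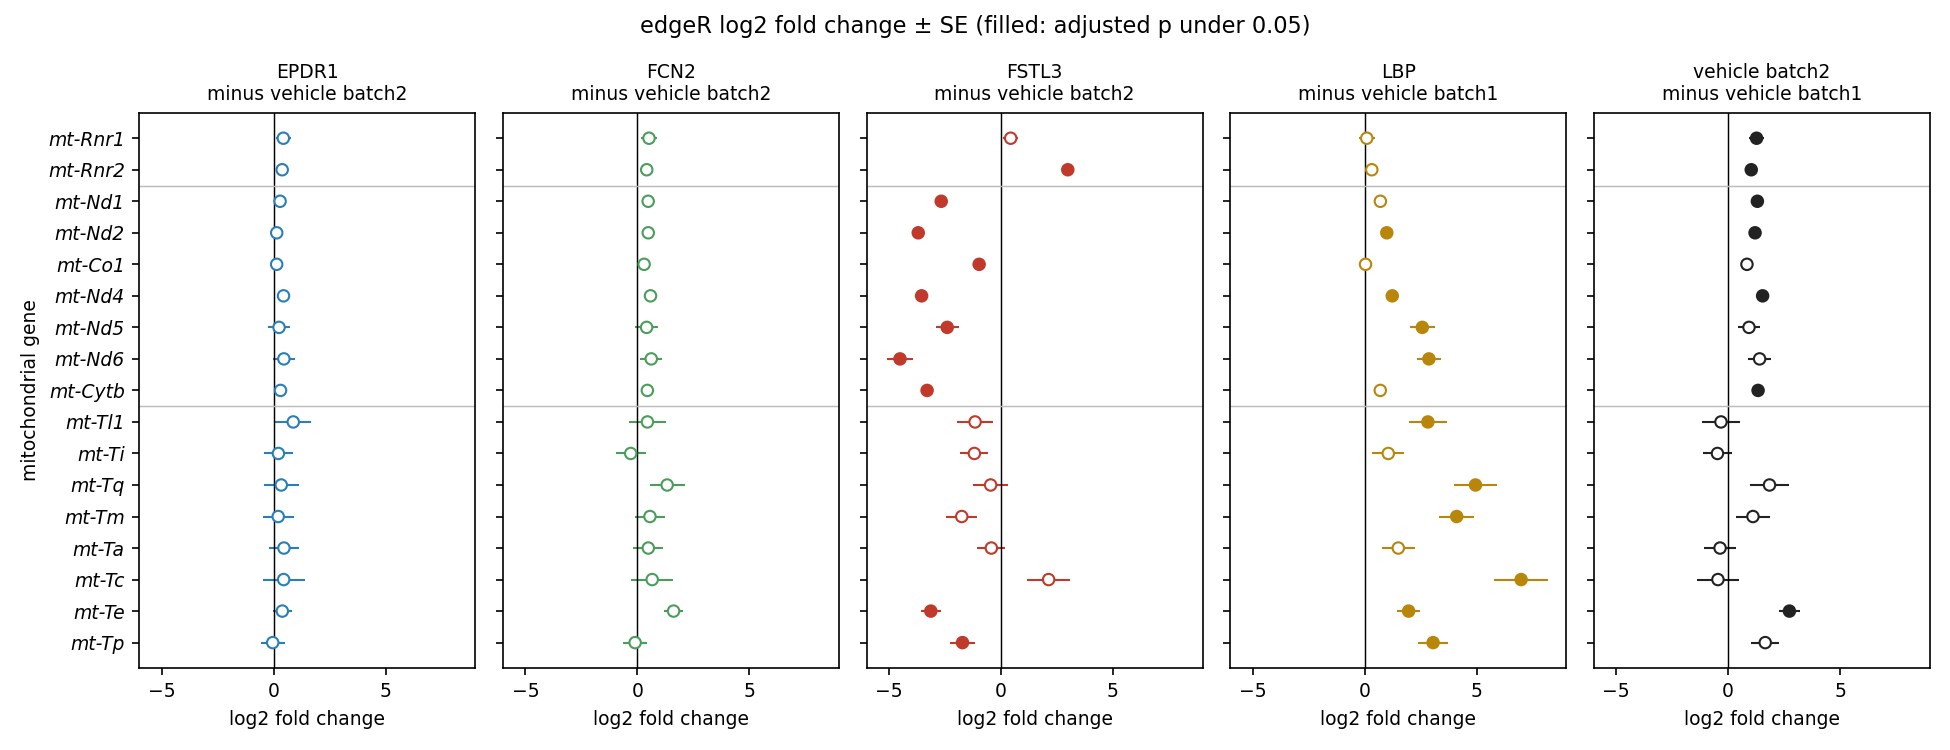
edgeR log2 fold change (points) ± SE (bars) of the 17 tested mitochondrial genes in 5 comparisons, with rRNAs on top, protein-coding genes in the middle and tRNAs below, and filled points for adjusted p under 0.05. FSTL3 shows filled points below 0 for all 7 protein-coding genes and above 0 for mt-Rnr2, LBP and the vehicle comparison show filled points above 0 only, and EPDR1 and FCN2 show none.

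Direct comparison of FSTL3 with the other proteins of batch 2 again had lower mRNAs and higher mt-Rnr2. Against EPDR1, 12 of 17 genes were called, 1 higher and 11 lower, where 42% of all genes were called (24% higher and 18% lower). Against FCN2, 11 were called, 1 higher and 10 lower, where 44.3% of all genes were (25.9% and 18.4%). Without LBP replicate 2 the counts were 14 (2 higher and 12 lower, where 58.6% of all genes were called, 31.9% higher and 26.6% lower) and 15 (2 and 13, where 60.8% were, 34% and 26.8%). The gene that was higher was mt-Rnr2 in both, by 2.61 ± 0.26 against EPDR1 and 2.56 ± 0.26 against FCN2. mt-Nd6 was lowest in both, at -4.96 ± 0.59 and -5.13 ± 0.59, and mt-Rnr1 was called in neither (0.01 ± 0.34 and -0.08 ± 0.34). These comparisons share the FSTL3 libraries with the one against vehicle.

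No mitochondrial gene passed the edgeR test for EPDR1: 0 of 17 were called, with 0 at an unadjusted p under 0.05 and 0 by DESeq2 or limma-voom, and 0% of all genes were called. Without LBP replicate 2 there were again 0, with 3 at an unadjusted p under 0.05, and again 0% of all genes. mt-Cytb read 35604, 26349, 30102 and 27322 CPM in EPDR1, a log2 fold change of 0.30 ± 0.22, and mt-Rnr2 read 9420.2, 7455, 7966 and 9035 (0.38 ± 0.25). All 17 genes overlap the vehicle of batch 2, as did all but 4.23% of all tested genes. The log2 fold changes of the 17 genes ran from -0.05 (mt-Tp) to 0.87 (mt-Tl1, tRNA for leucine) with a median of 0.33.

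For FCN2, 0 of 17 genes passed the edgeR test, where 0.81% of all genes were called (0.159% higher and 0.652% lower); 3 had an unadjusted p under 0.05, DESeq2 called 2 (mt-Nd1 and mt-Te) and limma-voom called 1 (mt-Te). mt-Te, the glutamate tRNA on the minus strand between mt-Nd6 and mt-Cytb, had the smallest p, with 109.7, 131, 84.03 and 217 CPM in the 4 FCN2 libraries and 25.4, 29.4, 54.8 and 69.1 in the vehicle. All 4 FCN2 libraries lay above the 4 vehicle libraries, and the log2 fold change was 1.62 ± 0.41, adjusted p = 0.0608. Without LBP replicate 2, 8 of 17 genes were called higher, where 18.9% of all genes were called (8.81% higher and 10.1% lower): mt-Nd1, mt-Nd2, mt-Nd4, mt-Nd6, mt-Cytb, mt-Te, mt-Tq and mt-Tc. In that fit mt-Te stood at 1.65 ± 0.34, adjusted p = 0.00437, and mt-Nd4 at 0.59 ± 0.16, adjusted p = 0.0147; the 5 mRNAs ran from 0.44 ± 0.16 (mt-Cytb) to 0.62 ± 0.19 (mt-Nd6). With all libraries mt-Nd4 stood at 0.59 ± 0.27, a like fold change with a larger standard error. mt-Nd4 read 16248, 14885, 18066 and 22202 CPM in FCN2 and 8168, 11768, 11739 and 15857 in the vehicle, with overlap. mt-Rnr1 read 8757, 8091, 8027 and 10289.6 CPM in FCN2, above every vehicle library, and was not called (0.52 ± 0.34, adjusted p = 0.438). Of the 17 genes, mt-Rnr1 and mt-Te were the 2 whose groups did not overlap, both above the vehicle, where 9.12% of all tested genes lay wholly above and 9.48% wholly below.

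EPDR1 and FCN2 were not separated in these genes: 0 of 17 were called by edgeR, with 1 at an unadjusted p under 0.05 (mt-Te, -1.24 ± 0.41, adjusted p = 0.405), 0 by DESeq2 and 0 by limma-voom, where 0% of all genes were called. When LBP replicate 2 was left out, mt-Te was called lower in EPDR1 (-1.24 ± 0.34, adjusted p = 0.0445), where 4.73% of all genes were called (2.26% higher and 2.47% lower).

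For LBP the mitochondrial tRNAs and the complex I genes mt-Nd5 and mt-Nd6 gave the largest log2 fold changes, and these rested on LBP replicate 2. Against the vehicle of batch 1, 10 of 17 genes were called, all higher (4 protein-coding and 6 tRNAs), where 7.7% of all genes were called (6.73% higher and 0.969% lower). DESeq2 called 8, all higher, of which 6 were among these 10, while limma-voom, and edgeR on the LBP and batch 1 vehicle libraries alone, called 0, and 6 were called without replicate 1 of that vehicle. With LBP replicate 2 left out, 0 were called, with 8 at an unadjusted p under 0.05, where 0.727% of all genes were called (0.515% higher and 0.212% lower); neither DESeq2 nor limma-voom was run without that library alone. mt-Tc, the cysteine tRNA, read 18868, 49.8 and 66.2 CPM in LBP replicates 2, 3 and 4 and 55.8, 47.9, 44.7 and 50.4 in the vehicle, so that only replicate 2 lay far above the vehicle. Its log2 fold change was 6.99 ± 1.21, adjusted p = 0.00865 with all 3 libraries and 0.23 ± 0.28, adjusted p = 0.785 with replicates 3 and 4. LBP replicate 2 held 16652 counts of mt-Tc out of 1463037 gene counts.

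The sequences of the 6 tRNAs that were called here are shown with their anticodons in capitals. LBP replicate 2 was the highest of all libraries for each of them except mt-Te. It was also the highest for the mRNAs mt-Nd5 and mt-Nd6. They are GENCODE M21 (GRCm38) transcripts, 5′ to 3′, and hold between 55.1% and 65.2% A and T. mt-Tc lies at chrMT:5192-5257, mt-Te at chrMT:14071-14139, mt-Tq at chrMT:3772-3842 and mt-Tp at chrMT:15356-15422, all on the minus strand, and mt-Tm at chrMT:3845-3913 and mt-Tl1 at chrMT:2676-2750, on the plus strand.
mt-Tc (cysteine): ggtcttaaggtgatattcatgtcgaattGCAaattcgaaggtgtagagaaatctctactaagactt
mt-Tq (glutamine): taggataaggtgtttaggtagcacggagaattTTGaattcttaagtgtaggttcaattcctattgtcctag
mt-Te (glutamate): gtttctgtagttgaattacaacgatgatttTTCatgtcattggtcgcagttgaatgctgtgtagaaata
mt-Tp (proline): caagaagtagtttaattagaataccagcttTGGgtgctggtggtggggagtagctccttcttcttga
mt-Tm (methionine): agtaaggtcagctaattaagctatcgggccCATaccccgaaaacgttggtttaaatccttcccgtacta
mt-Tl1 (leucine): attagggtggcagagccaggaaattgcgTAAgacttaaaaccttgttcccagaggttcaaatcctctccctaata

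The other 5 tRNAs showed the same split between LBP replicate 2 and the other libraries of batch 1. mt-Tq read 812, 10.4 and 21.8 CPM in LBP and 4.59 to 12.6 in the vehicle, mt-Tm 169, 9.11 and 6.45 and 1.14 to 4.37, and mt-Tp 72.5, 7.48 and 8.34 and 0.707 to 6.41. mt-Te read 58.9, 9.11 and 18.8 CPM and 3.42 to 9.33, and mt-Tl1 58.9, 2.28 and 1.61 and 0.707 to 5.71. In each, LBP replicate 2 exceeded every other LBP and vehicle library of its batch, while replicates 3 and 4 lay within the vehicle range for mt-Tl1, above it for mt-Tm and mt-Tp, and on either side of its upper end for mt-Tq and mt-Te. The tRNAs took 1.23, 0.0106 and 0.0128% of the counts of LBP replicates 2, 3 and 4 and 0.00846 to 0.00997% in the vehicle; mt-Tc alone was 92.7% of the tRNA counts of replicate 2.

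**Figure D5:**
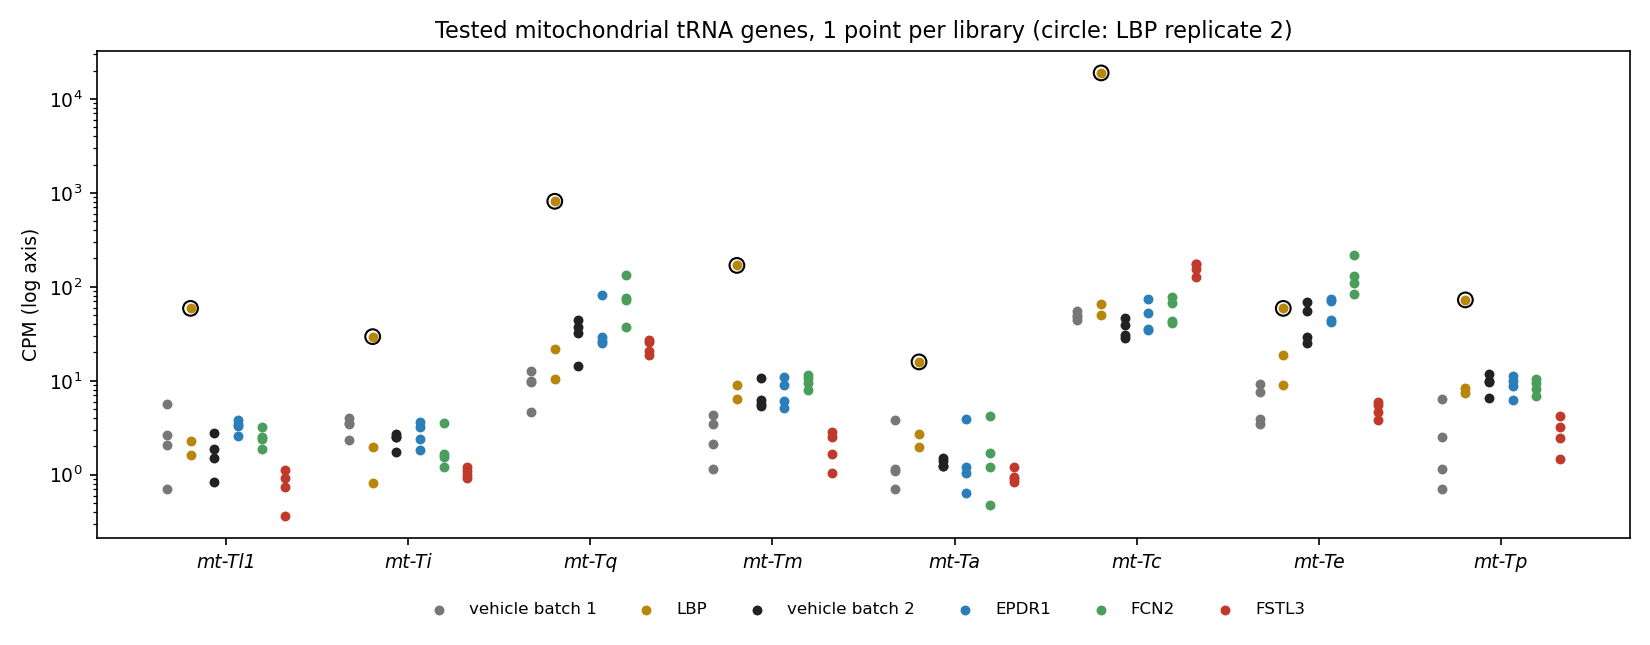
Each point is 1 library: level in CPM (log axis) of the 8 tested mitochondrial tRNA genes, coloured by group, with LBP replicate 2 circled. The circled library is the highest for mt-Tc (18868 CPM), mt-Tq, mt-Tm, mt-Tp, mt-Tl1, mt-Ta and mt-Ti and lies within the range of the other groups for mt-Te.

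The mRNAs differed less uniformly in LBP replicate 2. mt-Nd6 read 30847, 2673 and 2923 CPM in the 3 LBP libraries and 1192, 1551, 1711 and 2171 in the vehicle, and mt-Nd5 59922, 5067 and 5972 and 3404, 3252, 3938 and 5234. These 2 genes are neighbours on opposite strands and overlap by 14 bases. mt-Co1, in contrast, read 4819, 12239.8 and 15036 CPM, lower in replicate 2 than in every vehicle library (9636 to 11174), and mt-Rnr1 read 1106, 3183 and 3883 against 2321 to 2820.2. The log2 fold changes over the 3 libraries were 2.87 ± 0.55, adjusted p = 0.0106 for mt-Nd6, 2.58 ± 0.55, adjusted p = 0.0107 for mt-Nd5, 1.24 ± 0.29, adjusted p = 0.0141 for mt-Nd4 and 0.99 ± 0.26, adjusted p = 0.0237 for mt-Nd2. mt-Nd1 (0.71 ± 0.22) and mt-Cytb (0.70 ± 0.23) did not pass the edgeR test and were called by DESeq2 (0.80 ± 0.18, adjusted p = 0.000774, and 0.80 ± 0.19, adjusted p = 0.00182). The called genes were 5 of the 6 tested genes annotated on the minus strand and 5 of the 11 on the plus strand. Over all genes 7.7% were called. Without LBP replicate 2 none was called on either strand. Since counting ignored strand, these counts do not give the strand of the RNA.

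LBP replicates 3 and 4 alone had both rRNAs, 6 of the 7 mRNAs (all but mt-Nd5), mt-Tm and mt-Tp above every vehicle library, without passing the adjusted threshold. These were 10 of the 17 genes, with 1, mt-Ti, below every vehicle library, where 10.9% of all tested genes lay wholly above and 11.5% wholly below. The protein-coding share was 6.38 and 6.76% in these 2 libraries and 4.15, 4.32, 4.896 and 5.26% in the vehicle, with no overlap. mt-Cytb read 14388 and 15952 CPM against 7617 to 11233 (0.66 ± 0.19, adjusted p = 0.0877 without replicate 2), and the smallest adjusted p among the 17 genes was 0.0682. Beside these values, LBP replicate 2 held pancreatic acinar markers at 0.173% of counts, Kupffer cell markers at 0.0779% and erythroid markers at 0.165%, with acinar markers at 0.00245% and 0.092% in replicates 3 and 4, against 0.000909% to 0.0131%, 0.0375% to 0.0551% and 0.0261% to 0.0433% in the vehicle of batch 1 (of the 15, 10 and 6 markers, 2, 1 and 0 were at 0 in replicate 2). Their part in the result was not tested.

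The 2 vehicle groups, which received no protein, differed in the mitochondrial genes as well. Of 17 genes, 7 were called, all higher in the vehicle of batch 2 (4 protein-coding genes, both rRNAs and mt-Te), where 12.2% of all genes were called, 5.41% higher and 6.76% lower. Without LBP replicate 2, 13 were called, all higher, where 30.3% of all genes were (14.9% higher and 15.4% lower). A fit of the 8 vehicle libraries alone called 14, 13 higher and mt-Tc lower. The share of all genes called in that fit is not given here, and the shares above belong to other fits. mt-Cytb read 18769, 22261, 23626 and 32215 CPM in batch 2 and 7617, 8716, 10779.9 and 11233 in batch 1, a log2 fold change of 1.34 ± 0.22, adjusted p = 0.000593. mt-Rnr1 read 4089.7, 6485, 6342 and 7612 and 2491, 2820.2, 2321 and 2539 (1.27 ± 0.34, adjusted p = 0.0176). In both genes every library of batch 2 exceeded every library of batch 1. The other called genes were mt-Nd4 (1.54 ± 0.27), mt-Nd1 (1.31 ± 0.21), mt-Nd2 (1.202 ± 0.25), mt-Rnr2 (1.03 ± 0.25) and mt-Te (2.74 ± 0.48), with edgeR adjusted p of 0.00957 or less.

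Unlike in FSTL3, the rRNAs and mRNAs differed in the same direction between the vehicles. The log2 ratio of rRNA to protein-coding counts was -3.19 to -2.69 in batch 2 and -3.06 to -2.64 in batch 1, a difference of -0.0752 (exact permutation p = 0.571). mt-Co1 did not pass the test (0.84 ± 0.28, adjusted p = 0.0523) with all libraries and was called without LBP replicate 2 (adjusted p = 0.000339). The pseudogene copies on chromosome 1 were also higher in batch 2 for all 5 tested, by a median of 2.85. Sinusoidal endothelial markers were lower in the vehicle of batch 2 for 5 of 8 genes (0.0184% to 0.0234% of counts against 0.0318% to 0.0424%), where 6.76% of all genes were lower, and their part was not tested. Batch and anything else that differed between the 2 sets of injected mice cannot be told apart here, and the comparisons of EPDR1, FCN2 and FSTL3 share the vehicle of batch 2 with this one.

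The nuclear genes that act on mitochondrial DNA and RNA did not move in 1 direction. In FSTL3 against its vehicle, 4 of 16 tested genes of mitochondrial DNA transcription and replication were called, 3 higher and 1 lower, with a median log2 fold change of -0.25 beside 0.06 over all genes. Ssbp1, the mitochondrial single-stranded DNA binding protein, fell (-1.33 ± 0.24, adjusted p = 0.000157). Polg and Polg2, the subunits of the mitochondrial DNA polymerase, rose (0.80 ± 0.16, adjusted p = 0.000321, and 0.76 ± 0.23, adjusted p = 0.0113), and so did Polrmt, the RNA polymerase of mitochondria (0.55 ± 0.20, adjusted p = 0.03300). Tfam, which packages and starts transcription of mitochondrial DNA, did not pass the test (-0.07 ± 0.26, adjusted p = 0.868; named after its value was seen).

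Of 32 tested genes of mitochondrial RNA processing, modification and stability, 6 were called in FSTL3, 2 higher and 4 lower (median -0.07). Rexo2, an exonuclease for short RNA, fell (-1.52 ± 0.17, adjusted p = 4.71e-07), as did Hsd17b10, a subunit of the mitochondrial RNase P (-0.97 ± 0.22, adjusted p = 0.00109), while Fastkd1, an RNA-binding protein of mitochondria, rose (0.93 ± 0.29, adjusted p = 0.0144). Of 8 regulators of mitochondrial biogenesis, 3 rose and none fell (median 0.81): Ppargc1a, a transcriptional coactivator (1.17 ± 0.29, adjusted p = 0.00313), Nrf1 (0.91 ± 0.22, adjusted p = 0.00214) and Gabpa (1.000 ± 0.35, adjusted p = 0.0274), transcription factors of nuclear genes for mitochondria. These counts compare with 39.2% of all genes. Without LBP replicate 2 the same lists had 7 called (3 higher and 4 lower), 13 called (4 and 9) and 5 called (all higher), where 56.8% of all genes were.

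Between the vehicles, 5 of the 16 transcription and replication genes were called, 3 higher and 2 lower in batch 2 (median 0.17, beside -0.00494 over all genes), where 5.41% of all genes were higher and 6.76% lower. Ssbp1 was higher (1.14 ± 0.26, adjusted p = 0.00599), with Tfb1m and Mterf2 (both named after their values were seen), and Polrmt (-0.95 ± 0.21, adjusted p = 0.00527) and Polg (-0.69 ± 0.16, adjusted p = 0.00756) were lower. Of the RNA processing genes, Rexo2 was higher (0.79 ± 0.17, adjusted p = 0.004700) and Ptcd1 lower (-0.63 ± 0.20, adjusted p = 0.0388), and of the regulators Esrra (-1.52 ± 0.33, adjusted p = 0.00455) and Pprc1 (-1.097 ± 0.35, adjusted p = 0.0424) were lower. In FCN2, 1 of the 56 tested genes of these 3 lists was called, where 0.81% of all genes were. It was Ptcd1, a pentatricopeptide protein that binds mitochondrial leucine tRNAs (-0.94 ± 0.21, edgeR adjusted p = 0.0395). In LBP, 1 of the 56 was called, where 7.7% of all genes were. It was Twnk, the mitochondrial DNA helicase (0.88 ± 0.27, edgeR adjusted p = 0.0499). Without LBP replicate 2 none was called in LBP, where 0.727% of all genes were. EPDR1 had 0 of 56 called by edgeR, with all libraries or without LBP replicate 2, where 0% of all genes were called. When LBP replicate 2 was left out, FCN2 had 0 higher and 2 lower of the transcription and replication genes, 4 and 6 of the RNA processing genes and 2 and 1 of the regulators, where 18.9% of all genes were called. The vehicle comparison then had 4 higher and 2 lower, 2 and 3, and 0 and 4, where 14.9% of all genes were higher and 15.4% lower.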

How the data were processed

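The authors deposited whole-number counts for each gene, made with featureCounts 1.6.3 over Ensembl release 95 exons, per the file headers; the submitters' processing notes name STAR 2.6.0c and GRCm38. Libraries were made from 800 ng of total RNA and read as 50 bp pairs, per the labels' protocols. The recorded command sets no strand or multi-mapping option. All 23 libraries (773499 to 21892416 counts) were fitted together in edgeR 4.0.16 (R 4.3.3): filterByExpr, TMM, 6 group means, robust quasi-likelihood test, Benjamini-Hochberg adjustment over 11969 genes, and called under 0.05. SE is the log2 fold change divided by the square root of F. The procedure was tested on simulated data. Class shares were compared by exact permutation tests (Python 3.11.15, NumPy 2.4.6), with a pseudocount of 1 in ratios, adjusted over 20 tests. Other settings were DESeq2 1.42.0 (adjusted p left as NA where it gives none), limma-voom 3.58.1, other scalings, filters, denominators, the replicate block and leaving out each library. Settings without the FSTL3 libraries, and without LBP replicate 2 with nuclear scaling, were added after seeing the data. Replicates of a group differed beyond sampling noise in all 33 pairs (lowest chi-square per degree of freedom 2.27). 50-base windows of each mitochondrial transcript were searched in all other GENCODE M21 transcripts on both strands.

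The genes named are both rRNAs, mt-Nd6, the 4 protein-coding genes with most counts per kb, the 4 tRNAs with most counts, and mitochondrial genes called in comparisons without FSTL3. For 3 nuclear lists they are the 3 members with the smallest p in the FSTL3 and the vehicle comparison and those called elsewhere, and for the listed nuclear copies the 2 with most counts. The members and lists were chosen with earlier results of these data known.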

Additional observations from a re-analysis of the deposited data

Results flagged for a closer look

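In 160 sets of 4 values, each 1 measure in 1 group of 4 libraries, 13 values lay far from the other 3 of their set. Far means that the gap to the nearest over the range was above Dixon's 95% critical value. Chance gives about 1 in 20 such sets. FSTL3 replicate 4 had a log2 ratio of tRNA to protein-coding counts of -6.71 (others -6.44 to -6.39), an mt-Nd6 share of protein-coding counts of 1.27% (1.01 to 1.04%) and 1311 CPM of mt-Nd2 (1013 to 1055). EPDR1 replicate 4 had a log2 ratio of tRNA to protein-coding counts of -8.87 (-9.53 to -9.46), a tRNA share of mitochondrial counts of 0.179% (0.119 to 0.124%), an mt-Nd4 share of protein-coding counts of 17.3% (12.98 to 13.6%) and 80.9 CPM of mt-Tq (24.98 to 29.2). These values of a replicate share their denominators and are not independent. FCN2 replicate 3 had a ratio of mt-Rnr2 to mt-Rnr1 of 1.15 (0.931 to 0.960) and an mt-Tc share of tRNA counts of 33.5% (15.2 to 17.2%). In the vehicle of batch 1, replicate 2 had an rRNA share of counts of 0.692% (0.631 to 0.638%) and replicate 4 a tRNA share of 0.00997% (0.00846 to 0.00866%). In the vehicle of batch 2, replicate 1 had an mt-Nd5 share of protein-coding counts of 8.79% (7.74 to 7.91%) and replicate 4 had 10.8 CPM of mt-Tm (5.40 to 6.23). The LBP group, with 3 libraries, was not examined this way.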

How the results depend on the processing

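For EPDR1 the count of called mitochondrial genes stayed at 0 under every setting tried. For FSTL3 it ran from 9 to 14 over all settings with 7 to 12 lower and mt-Rnr2 higher in each. For FCN2 (0) DESeq2 called 2, limma-voom 1, the libraries compared alone 1, and the fit without LBP replicate 2 scaled to nuclear protein-coding genes 8; leaving out 1 library gave 0 to 8, with 8 without LBP replicate 2 and 1 each without LBP replicates 3 and 4. For LBP (10) DESeq2 called 8; limma-voom, the libraries compared alone and the fit without LBP replicate 2 with nuclear scaling called 0; leaving out 1 library gave 0 to 11, with 0 without LBP replicate 2 and 6 without replicate 1 of the vehicle of batch 1. For the vehicles (7) the libraries compared alone gave 14 and the fit without LBP replicate 2 with nuclear scaling 13; leaving out 1 library gave 6 to 13, with 13 without LBP replicate 2. EPDR1 against FCN2 (0) gave 1 without LBP replicate 2, also with nuclear scaling (0 to 1 over single libraries left out). FSTL3 gave 9 to 14 against EPDR1 and 10 to 15 against FCN2 with 1 library left out.

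Same-numbered replicates did not deviate together in every pair of any comparison, and not every sample correlated best with its own number, so the numbers were not taken as pairs. With the replicate number as a block, LBP had 0 called genes in place of 10, and the other counts were the same as without it. The log2 fold change of mt-Rnr1 in LBP was 0.10 and became -0.0907 with the block and -0.14 with limma-voom (-0.26 to 0.48 with 1 library left out), none of them called. mt-Tl1 in LBP became -0.20 without LBP replicate 2, with or without nuclear scaling (-0.20 to 3.51 over single libraries). mt-Tq in FSTL3 was 1.39 against the vehicle of batch 1. mt-Rnr1 in FSTL3 ran from -0.000535 (without FSTL3 replicate 4) to 0.58 over single libraries.

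No class share or ratio passed its adjusted threshold under any setting. The rRNA share difference of LBP (-0.0129 points) was 0.027 of nuclear protein-coding counts and -0.106 to 0.151 over single libraries; the ratio of rRNA to protein-coding counts of the vehicles (-0.0752) was 0.0600 without mt-Rnr2 and -0.15 to 0.0157 over single libraries, and that of FCN2 (0.0423) was -0.0486 to 0.116. The cause of these changes was not tested. Of the 22 tRNAs, 14 held too few counts to test, 7 of them with none in any library. The libraries held 773499 to 21892416 counts. Of the tRNAs without a count, mt-Ts1, mt-Td, mt-Tk and mt-Tg lie between genes that have copies on chromosome 1. mt-Tr, with 16 counts, lies there too, while mt-Tw, mt-Ty and mt-Th, also without a count, lie outside that stretch. Only annotated transcripts were searched, so whether unannotated sequence holds copies of these tRNAs was not tested.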
